A study of Saccharomyces cerevisiae with 12 samples.

Results

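The genes described here are 32 genes of ergosterol and fatty acid synthesis in the budding yeast Saccharomyces cerevisiae: 23 genes of the ergosterol pathway, the sterol regulators UPC2 and ECM22, and 7 genes of fatty acid synthesis and activation. They were chosen by name, and each name matched the annotation of 1 probe among the 6388 gene probes of the array, spotted in duplicate. The question behind the samples was whether deletion strains with slow growth alter their medium such that healthy cells placed in it express genes differently. Wild-type BY4742 cells were inoculated into synthetic complete medium (2% glucose) that another strain had used for 2 doublings, and after 2 doublings of their own their RNA was hybridised beside a wild-type reference RNA in the other dye. The 12 arrays formed 6 groups of 2. In set 1 the cells, given as DL009-wt, grew in cbf1-medium, npl3-medium or wt-medium. In set 2 the cells, given as wild type, grew in medium labelled bur2, cho2 or media_wt. Each medium is named after the strain that had used it: the wild type, or a deletion of CBF1, whose product binds centromeres and sulfur metabolism promoters, of NPL3, for a protein that accompanies mRNA out of the nucleus, of BUR2, for the regulatory subunit of a transcription kinase, or of CHO2, for an enzyme of phosphatidylcholine synthesis. All cells measured were thus wild type, and no array held RNA of a deletion strain.

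Several features limit these groups. The reference came from 1 culture, also of wild-type BY4742, and its growth medium is given only as "reference", so that medium, culture and extraction cannot be told apart in a comparison with it. Each group had 1 array with the sample in Cy3 (the first array below) and 1 with the sample in Cy5 (the second array). The series text speaks of independent cultures, whereas the study's methods speak of biological replicates each measured with swapped dyes, so n counts arrays, and the p-values measure the spread between these arrays, which may be technical. In bulk RNA, fewer cells expressing a gene and less RNA per cell cannot be told apart.

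Ergosterol is the main sterol of yeast membranes and takes the place that cholesterol has in animals. Its synthesis starts from acetyl-CoA, passes through mevalonate to farnesyl pyrophosphate, which also feeds dolichol, ubiquinone, haem A and protein prenylation, and then through squalene and lanosterol to ergosterol. Several of the later steps consume oxygen and use haem or iron, and the transcription factors Upc2 and Ecm22 raise transcription of the pathway when sterols run low. Fatty acids are made from the same acetyl-CoA by acetyl-CoA carboxylase and fatty acid synthase, and part of them is desaturated before entering membrane lipids.

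Set 1 was brighter than set 2. Its arrays had median spot signals of 327 to 507 in Cy5 and 254 to 367 in Cy3, while those of set 2 had 185 to 264 in Cy5 and 170 to 193 in Cy3, and background lay at 43 to 53 throughout. Precision is limited by how few arrays there were. Among the 32 genes, 31 or 32 per array were over 2 times their background in both channels, and no spot of theirs was saturated. UPC2 was the dimmest, at a median of 2.38 times background in the sample channel, and FAS2 the brightest, at 102 times. Duplicate spots of these genes differed by a median of 0.020 to 0.044 on the log2 scale, depending on the array. Across the 32 genes, which are no independent replicates, the correlation between both arrays of a medium ranged from r = 0.532 to r = 0.733. In the sample channel the 4 MATalpha-specific genes read 29.1 to 443 times background and the 5 MATa-specific genes 1.13 to 3.25 times, while among genes deleted in the strain LEU2 and URA3 read 1.03 to 1.19 times, LYS2 1.65 to 3.07 times, and HIS3, of which a part is deleted, 2.59 to 8.44 times. HIS3 thus exceeded 2 times background on every array and LYS2 on some. The MATalpha-specific genes were also 0.20 to 0.88 higher than the reference on the log2 scale, and all 4 passed the test there.

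Against the reference, most ergosterol genes were lower in cells grown in pre-used medium, whichever strain had used it, whereas the fatty acid genes lay on both sides. Values are log2 ratios of sample over reference, averaged over the 6 media, with standard errors from a limma fit over all 12 arrays. Of the 32 genes, 29 passed an adjusted p of 0.05 (Benjamini-Hochberg over all 6388 probes), 22 of them lower and 7 higher. The comparison called 4474 of 6388 probes (70.0%), with 35.6% of all probes lower and 34.4% higher, so that being called is the common state here. The median was -0.13 over the 32 genes, against -0.0034 over all probes, and -0.15 over the 23 ergosterol genes, of which 19 were called lower and 3 higher. In the deposited log2 table the median over the 32 genes was -0.070. Lower on all 12 arrays were 12 of the 32 genes (15.1% of all probes), namely ERG2, ERG3, ERG5, ERG9, ERG11, ERG12, ERG25, ERG27, ERG28, HMG1, HMG2 and ECM22. Higher on all 12 were 5 (19.2% of all probes), namely ERG6, ERG20, IDI1, ACC1 and OLE1. The error leaves out the spread of the reference culture itself.

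**Figure D1:**
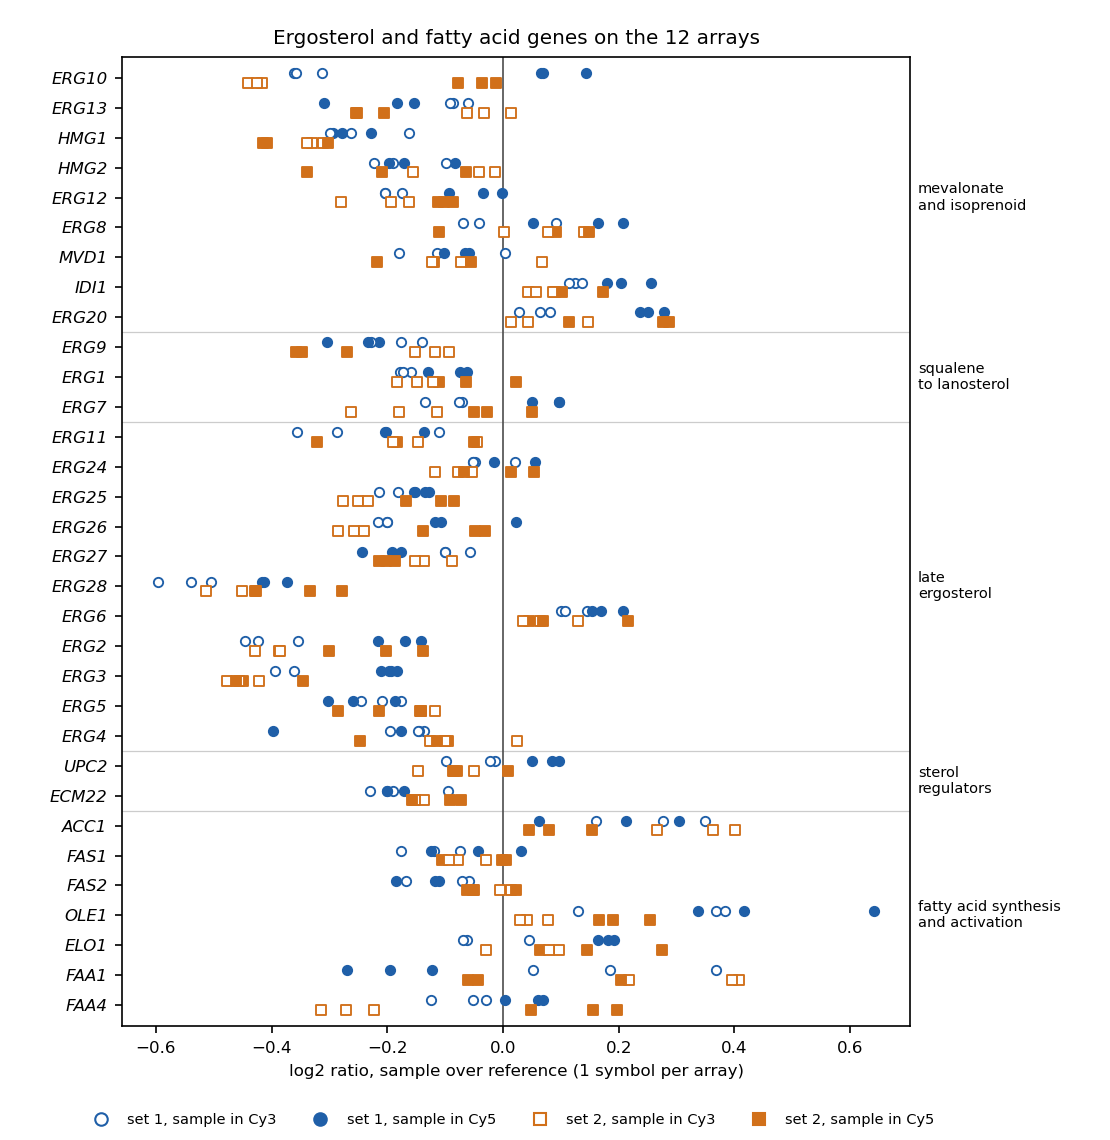
Log2 ratio of sample over reference (x axis) of the 32 genes (y axis, in pathway order) on each of the 12 arrays. Circles are arrays of set 1 and squares of set 2, open with the sample in Cy3 and filled with the sample in Cy5. ERG28 lay between -0.60 and -0.28 on every array, and OLE1 between 0.029 and 0.64.

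In the mevalonate and isoprenoid part of the pathway, 6 of 9 genes were called lower and 2 higher. HMG1, which encodes the main HMG-CoA reductase and thereby the rate-limiting step, read -0.41 at the lowest, -0.30 at the median and -0.16 at the highest of the 12 arrays. Its mean was -0.30 ± 0.014 (SE, n = 12 arrays here and below), or 0.811 times the reference level (limma adjusted p = 3.45e-07). HMG2, its paralog, lay closer to the reference, from -0.34 through -0.16 to -0.013, with a mean of -0.15 ± 0.022. The genes of the steps before and after it, ERG10 (acetyl-CoA acetyltransferase), ERG13 (HMG-CoA synthase), ERG12 (mevalonate kinase) and MVD1 (mevalonate pyrophosphate decarboxylase), had means of -0.18 to -0.087 and were also called lower. ERG8, the phosphomevalonate kinase between them, read -0.11 to 0.21 over the arrays, and its mean of 0.063 ± 0.027 missed the limit (adjusted p = 0.0644). This call depended on the setting. ERG8 passed in the deposited table (adjusted p = 0.0128), with the array number as a block (adjusted p = 0.0400), without the darkest probes (adjusted p = 0.0492), with the arrays of a medium averaged (adjusted p = 0.0290), and without the first cbf1 (adjusted p = 0.0158) or the second cho2 array (adjusted p = 0.00853).

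The last enzymes before the branch point to sterols and other isoprenoids lay on the other side of the reference. IDI1, the isomerase that makes dimethylallyl pyrophosphate, read 0.044 at the lowest, 0.12 at the median and 0.26 at the highest array, a mean of 0.13 ± 0.010 (1.09 times the reference, adjusted p = 6.53e-06). ERG20, farnesyl pyrophosphate synthase, read from 0.015 through 0.13 to 0.29, a mean of 0.15 ± 0.014 (1.11 times, adjusted p = 1.54e-05). Both were higher than the reference on every array, next to 6 called genes of the same segment that were lower.

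From squalene to lanosterol all 3 genes were called lower. ERG9, squalene synthase, which commits farnesyl pyrophosphate to sterols, was lowest at -0.22 ± 0.017 and lay below the reference on every array. ERG1, the squalene epoxidase, was at -0.12 ± 0.0099 and lower on 11 arrays. ERG7, lanosterol synthase, was at -0.052 ± 0.0091 and lower on only 8 arrays. Its values with the sample in Cy3 (-0.26 to -0.070) and in Cy5 (-0.050 to 0.10) did not overlap, and without the dye term it was not called (adjusted p = 0.187).

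Among the 11 late ergosterol genes, which turn lanosterol into ergosterol, 10 were called lower and 1 higher, with a median of -0.17. ERG28, whose product tethers the C-4 demethylation enzymes to the endoplasmic reticulum, was the lowest of all 32 genes. It read -0.60 at the lowest, -0.43 at the median and -0.28 at the highest array, and its mean of -0.44 ± 0.010 corresponded to 0.737 times the reference (adjusted p = 1.67e-08). The enzymes it tethers, ERG25, ERG26 and ERG27, differed less from the reference, at -0.17 ± 0.012, -0.15 ± 0.013 and -0.15 ± 0.010. ERG3, the C-5 desaturase, read from -0.48 through -0.38 to -0.18, a mean of -0.35 ± 0.016 (0.787 times, adjusted p = 2.63e-07). ERG2, the C-8 isomerase, read from -0.45 through -0.33 to -0.14, a mean of -0.30 ± 0.014 (0.813 times, adjusted p = 3.08e-07). No array of these 3 genes reached the reference level.

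The other late genes were nearer to it. ERG5 and ERG11, the cytochrome P450 enzymes of the pathway, the second of them the target of azole antifungals, were at -0.20 ± 0.012 and -0.19 ± 0.024. ERG4, the reductase of the last step, was at -0.15 ± 0.020 and lower on 11 arrays. ERG24, the C-14 reductase, was at -0.029 ± 0.011 (adjusted p = 0.0388), a call lost when any of 9 arrays was left out, up to an adjusted p of 0.122, and kept only without the first cbf1, the second bur2 or the second cho2 array. In the deposited table ERG24 was at -0.0058 (adjusted p = 0.646). ERG6, the sterol methyltransferase by which fungal sterols differ from those of animals, was the exception. It was higher on every array, from 0.035 through 0.12 to 0.22, with a mean of 0.12 ± 0.010 (1.09 times, adjusted p = 1.06e-05).

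The regulators of these genes were among the dimmest probes, and normalization with an offset of 50 draws the ratios of dim spots toward 0. ECM22 was lower on all 12 arrays, from -0.23 to -0.072, with a mean of -0.15 ± 0.012 at 4.02 times background. UPC2 read -0.15 to 0.10, and its mean of -0.029 ± 0.014 missed the limit (adjusted p = 0.109). UPC2 was called lower with loess per print tip (-0.044, adjusted p = 0.0112), with median centring (-0.071, adjusted p = 0.0168), in the deposited table (-0.048, adjusted p = 0.00899), and without the second wild-type array of set 1 (adjusted p = 0.0255) or the first of set 2 (adjusted p = 0.0283).

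The 7 fatty acid genes had a median of 0.090, with 2 called lower and 4 higher. OLE1, the acyl-CoA desaturase that makes monounsaturated fatty acids, was the highest of all 32 genes, reading 0.029 at the lowest, 0.22 at the median and 0.64 at the highest array. Its mean was 0.25 ± 0.031, or 1.19 times the reference (adjusted p = 0.000103). ACC1, acetyl-CoA carboxylase, the first committed step of fatty acid synthesis, followed with 0.045, 0.24 and 0.40 and a mean of 0.22 ± 0.029 (1.17 times, adjusted p = 0.000138). Both subunits of fatty acid synthase lay slightly below the reference instead, FAS1 at -0.067 ± 0.016 and FAS2 at -0.070 ± 0.012, though FAS2 was at 0.0034 in the deposited table and missed the limit with loess per print tip (-0.032, adjusted p = 0.0617). ELO1, which elongates medium-chain fatty acids, was at 0.090 ± 0.016 and called higher. The acyl-CoA synthetases FAA1 and FAA4, which activate imported fatty acids, differed more between dyes than the other 5 genes of this group. FAA1 read 0.052 to 0.41 with the sample in Cy3 and -0.27 to 0.20 in Cy5, and its mean of 0.095 ± 0.026 was called higher but turned to -0.043 in the deposited table. It was not called with loess per print tip (0.047) or without the dye term (adjusted p = 0.232). FAA4 read -0.32 to -0.029 in Cy3 and 0.0028 to 0.20 in Cy5, with a mean of -0.040 ± 0.028 (adjusted p = 0.234). FAA4 was called lower with the array number as a block (adjusted p = 0.0189) and with the arrays of a medium averaged (adjusted p = 0.0494).

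**Figure D2:**
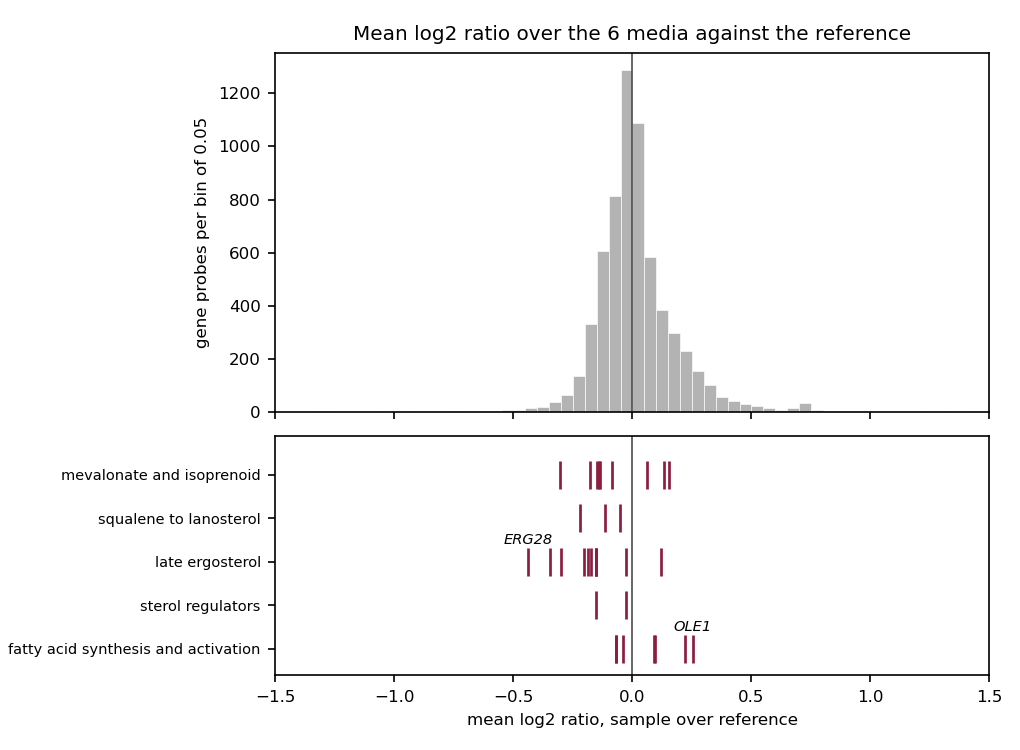
Mean log2 ratio against the reference over the 6 media (x axis) of all 6388 gene probes, counted in bins of 0.05 (upper panel), and of the 32 genes, each a vertical mark in the row of its segment (lower panel). The marks reach from -0.44 (ERG28) to 0.25 (OLE1), inside the spread of all probes, which runs from -1.34 to 1.47.

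The arrays of either dye did not overlap for 8 of the 32 genes (18.3% of all probes), namely ERG2, ERG7, ERG10, ERG12, ERG13, ERG26, ERG27 and FAA4. The gap was widest for ERG10, which read -0.44 to -0.31 in Cy3 and -0.077 to 0.14 in Cy5. Since every medium had 1 array per dye, such a difference cancels in the mean of a medium, but not on a single array.

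The genes were also grouped by their use of oxygen and of haem or iron. Of the 6 oxygen-using members (ERG1, ERG11, ERG25, ERG3, ERG5 and OLE1), 5 were called lower and OLE1 higher, with a median of -0.18. The 5 members that use haem or iron had a median of -0.19, and the other 27 a median of -0.087. All members that use oxygen, haem or iron except OLE1 belong to the ergosterol pathway, whose 23 genes had a median of -0.15. The other 27 also hold the regulators and most fatty acid genes, so the 2 groups differ in pathway as well as in use. Within the pathway, ERG28, HMG1 and ERG2, not listed as users, were among the lowest genes, beside the user ERG3. ERG6, ERG20 and IDI1, also not listed as users, were called higher. Whether use went with level inside the pathway was not tested. These medians describe lists chosen by name and carry no test.

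Related genes outside the 32 lay closer to the reference as groups. Of 22 other sterol genes, 14 were called lower and 4 higher, with a median of -0.042. NCP1, the reductase that supplies electrons to Erg11 and other enzymes, was at -0.23 ± 0.012 (adjusted p = 5.42e-07), and ARE2, which esterifies sterols for storage and was dim at 1.73 times background, at -0.15 ± 0.011 (adjusted p = 3.87e-06). OSH2, for a sterol-binding protein, was higher at 0.12 ± 0.010. MGA1, also dim at 1.47 times background, was higher at 0.15 ± 0.013, but its place among sterol genes was not checked. Of 12 genes that use isoprenoids elsewhere, 6 were called lower and 5 higher, among them the dolichol enzyme gene RER2 at 0.37 ± 0.017 and the prenyltransferase gene BET4 at 0.28 ± 0.013, against the ubiquinone gene COQ2 at -0.14 ± 0.012 and BET2 at -0.14 ± 0.019. Of 22 other fatty acid genes, 7 were called lower and 6 higher. BPL1, the ligase that attaches biotin to Acc1, was at 0.75 ± 0.016 (adjusted p = 1.09e-08), between 0.61 and 0.88 on the 12 arrays and above every one of the 32 genes. FAA2, of peroxisomal fatty acid activation, followed at 0.32 ± 0.019, while FAA3 and ACS1 were lower, at -0.16 ± 0.013 and -0.074 ± 0.0097. Of 13 genes of anaerobic sterol uptake and cell wall, 7 were called lower and 2 higher, among them ROX1, the haem-dependent repressor of hypoxic genes, at -0.27 ± 0.017, the sterol uptake regulator gene SUT1 at -0.23 ± 0.011, and the wall genes TIR4 (dim, at 1.79 times background) and TIR2 at 0.053 ± 0.013 and 0.047 ± 0.015.

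The comparison the study was built for, medium of a deletion strain against wild-type medium of the same set, showed no gene of the 32 past the limit in any of the 4 media. Limma called 0 of the 32 genes in cbf1 medium, where it called 0 of 6388 probes (0%), and likewise 0 of 32 and 0 of 6388 in npl3, bur2 and cho2 medium. At an unadjusted p under 0.05 there were 0, 0, 4 and 2 of the 32 genes, and 85, 181, 242 and 126 of the 6388 probes. The median difference over the 32 genes was 0.0030 in cbf1 medium, 0.031 in npl3 medium, -0.015 in bur2 medium and -0.048 in cho2 medium, against 0.00085, 0.00080, -0.0016 and -0.00019 over all probes. Over these 4 comparisons the 95% interval of a gene reached at most 1.29-fold from no difference, for HMG2 in cho2 medium, on the scale of offset ratios. A p that misses the limit does not show that levels were equal, and the intervals give the sizes these arrays leave possible.

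In cbf1 medium, ERG5 and ERG7 had the smallest p values. ERG5 read -0.25 and -0.30 in cbf1 medium (first and second array) and -0.21 and -0.19 in wild-type medium, a difference of -0.076 ± 0.042 (SE, n = 2 arrays per medium here and below; 95% interval -0.17 to 0.021). ERG7 read -0.070 and 0.10 against -0.13 and 0.050, a difference of 0.055 ± 0.032. Since the media shared their dyes, arrays were set against the array of the same dye. In both dyes cbf1 medium lay below wild-type medium for ERG5 and above it for ERG7. Of the 32 genes 15 were lower and 17 higher than in wild-type medium, from -0.13 (FAA1) to 0.12 (ERG4).

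In npl3 medium, 23 of the 32 genes were higher and 9 lower, none of them past the limit, beside 3244 of 6388 probes higher. Genes read on the same arrays are no independent replicates, so that such counts of direction, here and below, carry no test. ECM22 read -0.10 and -0.17 in npl3 medium and -0.23 and -0.20 in wild-type medium, a difference of 0.082 ± 0.041 (95% interval -0.013 to 0.18). ERG3 read -0.19 and -0.18 against -0.39 and -0.20, a difference of 0.11 ± 0.054 (95% interval -0.016 to 0.23). For both genes the npl3 arrays lay above the wild-type arrays, for ERG3 by a narrow margin on the second array.

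In bur2 medium, ERG6, ELO1, ERG1 and ERG24 had an unadjusted p under 0.05. ERG6 read 0.13 and 0.22 in bur2 medium and 0.035 and 0.070 in wild-type medium, a difference of 0.12 ± 0.036 (95% interval 0.039 to 0.20, adjusted p = 0.851). ELO1 read -0.030 and 0.064 against 0.080 and 0.28, a difference of -0.16 ± 0.055 (95% interval -0.29 to -0.034, adjusted p = 0.999). The bur2 arrays did not overlap with the wild-type arrays for either gene, lying above them for ERG6 and below them for ELO1. ERG1 differed by -0.097 ± 0.034 and ERG24 by 0.092 ± 0.037.

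In cho2 medium, 17 of the 23 ergosterol genes had values below wild-type medium and 6 above, with a median of -0.054. Among all 6388 probes 3209 lay below. ERG28 read -0.51 and -0.43 in cho2 medium and -0.45 and -0.28 in wild-type medium, a difference of -0.11 ± 0.036 (95% interval -0.19 to -0.024, adjusted p = 1.00). HMG2 read -0.16 and -0.34 against -0.042 and -0.064, a difference of -0.19 ± 0.075 (95% interval -0.37 to -0.024, adjusted p = 1.00). In both dyes cho2 medium lay below wild-type medium for either gene. With each array centred on its median in place of loess, the median over the 32 genes was -0.10 in this medium and 0.037 in bur2 medium. In the deposited table it was -0.016 in cho2 medium, and with 1 array left out it ranged there from -0.048 to -0.020.

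**Figure D3:**
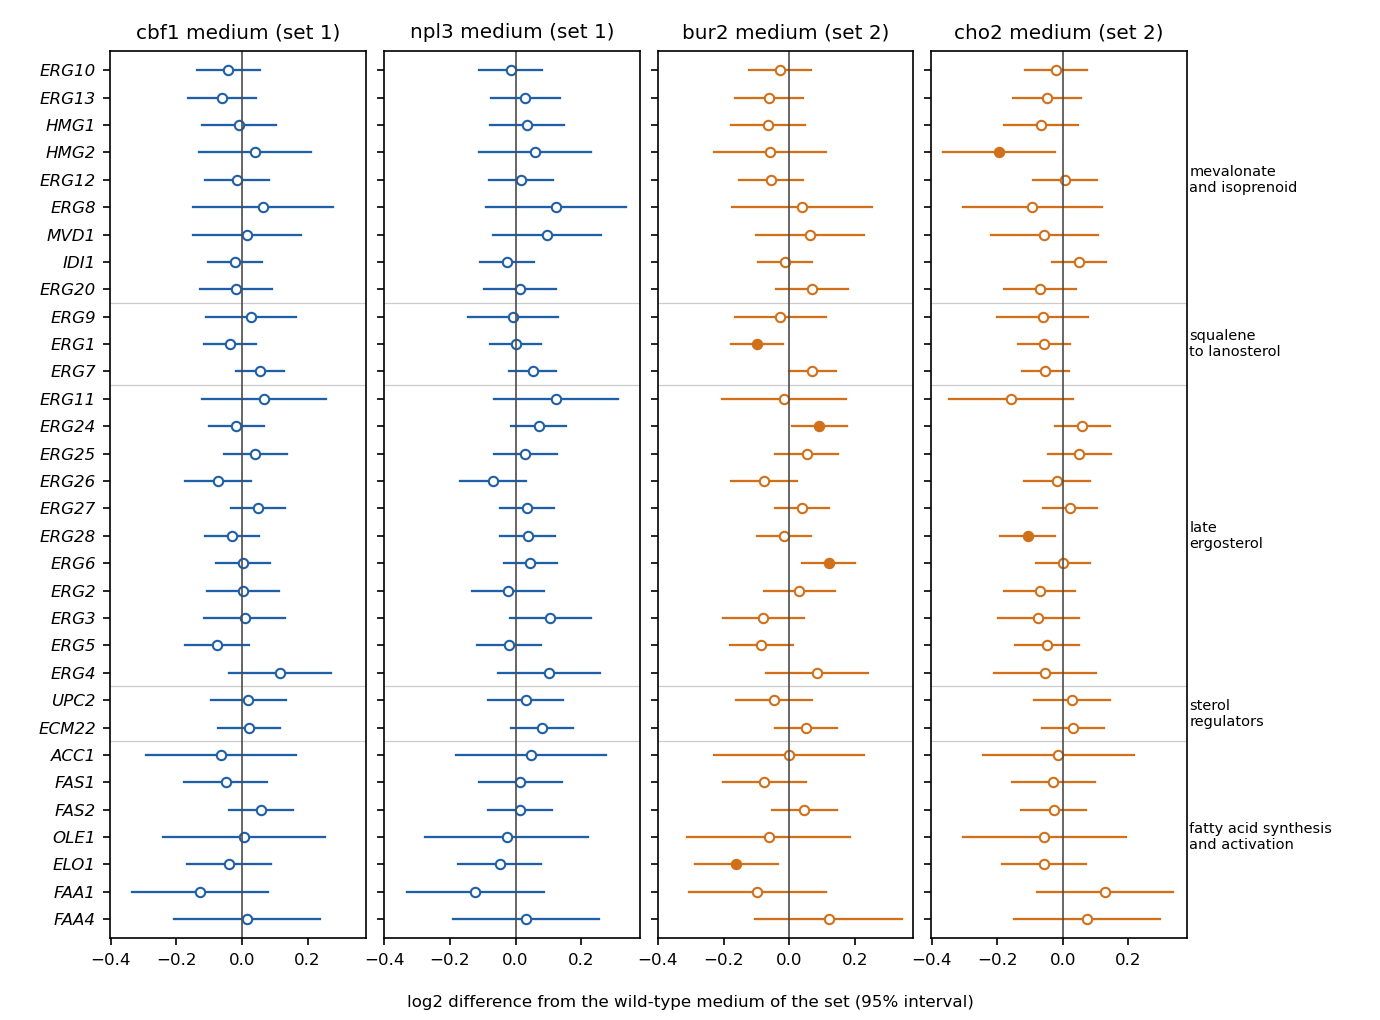
Log2 difference from the wild-type medium of the same set (x axis) of the 32 genes (y axis) in cbf1, npl3, bur2 and cho2 medium, with lines for the 95% interval. Filled symbols mark intervals that leave out 0, which are 0, 0, 4 and 2 of 32, and none passed the adjusted limit.

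Media of a set were also compared with each other. Between cbf1 and npl3 medium limma called 0 of the 32 genes, and 2 of 6388 probes (0.0313%). An unadjusted p under 0.05 was found for 1 of the 32 and for 96 of all probes. ERG24 read -0.049 and -0.052 in cbf1 medium and 0.020 and 0.055 in npl3 medium, a difference of -0.088 ± 0.037, and ERG13 -0.087 and -0.31 against -0.061 and -0.15, a difference of -0.090 ± 0.046. In both dyes cbf1 medium lay below npl3 medium for either gene. Between bur2 and cho2 medium limma called 0 of the 32 genes and 0 of 6388 probes (0%), with 5 of the 32 and 532 of all probes at an unadjusted p under 0.05. ERG7 read -0.11 and 0.050 in bur2 medium and -0.26 and -0.050 in cho2 medium, a difference of 0.12 ± 0.032 (95% interval 0.052 to 0.20, adjusted p = 0.519). ERG6 read 0.13 and 0.22 against 0.064 and 0.044, a difference of 0.12 ± 0.036 (95% interval 0.037 to 0.20, adjusted p = 0.519). Both genes were higher in bur2 than in cho2 medium in either dye. Of the 23 ergosterol genes 15 had higher values in bur2 than in cho2 medium, with a median of 0.032, beside 3226 of 6388 probes.

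With all 4 deletion-strain media set against both wild-type media, limma called 0 of the 32 genes and 0 of 6388 probes (0%), with 0 of the 32 and 184 of all probes at an unadjusted p under 0.05. ERG24 had the smallest p. It read -0.049 and -0.052 in cbf1, 0.020 and 0.055 in npl3, -0.054 and 0.053 in bur2, and -0.078 and 0.013 in cho2 medium, against -0.051 and -0.015 in wild-type medium of set 1 and -0.12 and -0.067 in that of set 2, a difference of 0.051 ± 0.022. ERG1 followed, with -0.18 and -0.13 in cbf1, -0.16 and -0.075 in npl3, -0.18 and -0.11 in bur2, and -0.15 and -0.064 in cho2 medium, against -0.17 and -0.061, and -0.12 and 0.022, in the wild-type media, a difference of -0.047 ± 0.021. Within each dye ERG24 overlapped between deletion-strain and wild-type media, and ERG1 overlapped in Cy3 but lay lower in the deletion-strain media in Cy5. No interval of the 32 genes reached beyond 1.15-fold. The effect of deletion-strain media was also compared between the sets, and limma called 0 of the 32 genes and 0 of 6388 probes for a difference between them, with 0 of the 32 at an unadjusted p under 0.05.

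The sets were compared over the 3 media of each, 6 arrays a side, which gives a smaller error than a comparison of single media (median SE over the 32 genes 0.028 against 0.048). Set 1 and set 2 share strain, recipe and reference but were labelled apart, and set, array brightness and any batch cannot be told apart. With the 3 media of each set averaged, limma called 5 of the 32 genes, beside 631 of 6388 probes (9.88%). An unadjusted p under 0.05 was found for 12 of the 32 and for 1814 of all probes. Lower in set 2 were OLE1, ERG3, ERG10 and ERG7 (5.28% of all probes were called lower), and higher was FAS2 (4.60% of all probes). The median difference was -0.0095 over the 32 genes and -0.0048 over all probes. Regardless of sign it was 0.046 over the 32 genes. Between single media of a set it was 0.034 to 0.038 in set 1 and 0.055 to 0.062 in set 2. A median regardless of sign grows with the error, which was larger between single media, so these sizes cannot be compared directly.

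OLE1 had the largest difference of the 5. In set 1 it read 0.37 and 0.42 in cbf1 medium, 0.38 and 0.34 in npl3 medium, and 0.13 and 0.64 in wild-type medium. In set 2 it read 0.042 and 0.17 in bur2 medium, 0.029 and 0.19 in cho2 medium, and 0.078 and 0.25 in wild-type medium. The medium means lay between 0.36 and 0.39 in set 1 but only between 0.10 and 0.17 in set 2, and single arrays overlapped only through the first wild-type array of set 1. The difference was -0.25 ± 0.063 (0.839-fold, 95% interval -0.40 to -0.11, adjusted p = 0.0433), at -0.24 among Cy3 arrays and -0.26 among Cy5 arrays.

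ERG3 read -0.36 and -0.21 in cbf1 medium, -0.19 and -0.18 in npl3 medium, and -0.39 and -0.20 in wild-type medium of set 1. In set 2 it read -0.48 and -0.45 in bur2 medium, -0.46 and -0.46 in cho2 medium, and -0.42 and -0.35 in wild-type medium. It was lower in set 2 in both dyes, and only the first wild-type and first cbf1 arrays of set 1 reached into the range of set 2. The difference was -0.18 ± 0.031 (0.883-fold, 95% interval -0.25 to -0.11, adjusted p = 0.0135), at -0.14 among Cy3 arrays and -0.22 among Cy5 arrays.

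The other called genes differed less. ERG10 read -0.36 to -0.31 on the Cy3 arrays of set 1 and -0.44 to -0.42 on those of set 2, and 0.065 to 0.14 against -0.077 to -0.013 on the Cy5 arrays, so that within each dye the sets did not overlap. Its difference was -0.11 ± 0.024 (adjusted p = 0.0286). ERG7 read -0.13 to -0.070 against -0.26 to -0.11 in Cy3, and 0.050 to 0.098 against -0.050 to 0.050 in Cy5, a difference of -0.091 ± 0.018 (adjusted p = 0.0228). FAS2, a fatty acid synthase subunit, read -0.18 to -0.059 over the 6 arrays of set 1 and -0.062 to 0.023 over those of set 2, a difference of 0.096 ± 0.025 (adjusted p = 0.0465).

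Among genes that missed the limit, HMG1 was the 1 gene of 32 whose 6 arrays in set 1 (-0.30 to -0.16) and 6 in set 2 (-0.41 to -0.30) did not overlap, which held for 3.32% of all probes. Its difference was -0.097 ± 0.028 (adjusted p = 0.0685). IDI1 (-0.077 ± 0.021), FAA1 (0.18 ± 0.052), ERG28 (0.068 ± 0.021), UPC2 (-0.089 ± 0.029), ERG6 (-0.054 ± 0.021) and ERG4 (0.090 ± 0.039) made up the rest of the 12. With the array number as a block IDI1 was called too (limma adjusted p = 0.0408). The set difference had the same sign among Cy3 arrays for 26 of the 32 genes and among Cy5 arrays for 24. It is the mean of the differences in either dye, so at least 1 dye shares its sign for every gene. These counts therefore do not test whether the dyes gave the same result.

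**Figure D4:**
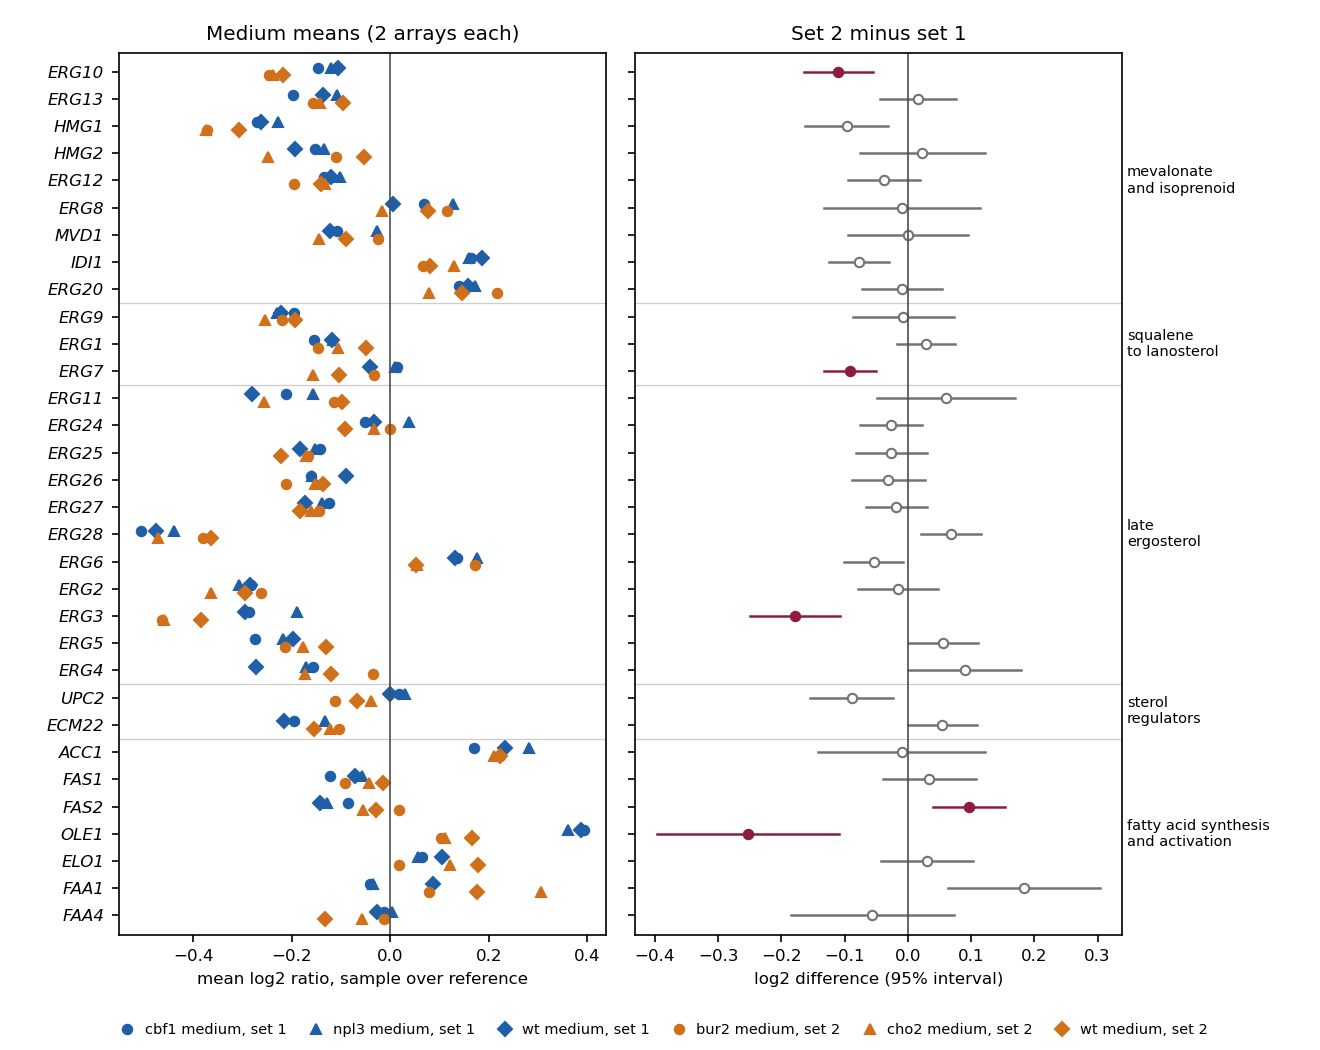
Mean log2 ratio of the 32 genes in each medium (left, 2 arrays per symbol, set 1 in blue and set 2 in orange) and the difference of set 2 from set 1 over 3 media each with its 95% interval (right). Filled symbols on the right mark the 5 genes past the adjusted limit, from OLE1 at -0.25 to FAS2 at 0.096.

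These calls rested on few arrays. With 1 array left out in turn, 0 of the 32 genes were called without the first npl3 array or the second wild-type array of set 2, 1 without either cbf1 array, either cho2 array or the second bur2 array, 2 without the first bur2 array or the first wild-type array of set 2, 4 or 5 without the second npl3 array or the second wild-type array of set 1, and 9 without the first wild-type array of set 1. The calls among all 6388 probes, 631 with every array, moved as well. They ranged from 199 without the first npl3 array to 1288 without the first wild-type array of set 1. The change in calls was thus not particular to the 32 genes. ERG3 was called in 10 of these 12 fits, OLE1, ERG10, ERG7 and FAS2 in 3, 3, 4 and 1. Without a dye term 0 were called. OLE1 missed the limit with loess per print tip (limma adjusted p = 0.0651) and in the deposited table (limma adjusted p = 0.0513). ERG7 and FAS2 missed it in both of these and with median centring. FAS2 also missed it without background subtraction and without the darkest probes, and ERG10 with median centring. ERG3 was called in each of these apart from the fit without a dye term. With the 2 arrays of each medium averaged into 1 value, as fits the case that they hold 1 RNA extract, 6 were called. They were OLE1 (limma adjusted p = 0.00287), ERG10, ERG3, HMG1, UPC2 and FAS2. The same fit called 1115 of 6388 probes (17.5%), so calls were common among all probes as well.

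In the wild-type media alone, the same set comparison called 0 of the 32 genes and 15 of 6388 probes (0.235%), with 4 of the 32 and 589 of all probes at an unadjusted p under 0.05. ERG28 read -0.54 and -0.41 in set 1 and -0.45 and -0.28 in set 2, a difference of 0.11 ± 0.036, and IDI1 read 0.11 and 0.26 against 0.057 and 0.10, a difference of -0.11 ± 0.036 (limma adjusted p = 0.417). In both dyes ERG28 was higher and IDI1 lower in set 2. Without the first wild-type array of set 1, limma called OLE1 (adjusted p = 0.0262), with only the array at 0.64 left in that arm, which is then assumed to vary like the other groups.

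Outside the 32 genes, the set comparison over 3 media each called 1 of 22 other sterol genes, NCP1 at -0.13 ± 0.023 (adjusted p = 0.0162), 1 of 22 other fatty acid genes, the mitochondrial reductase gene ETR1 at 0.24 ± 0.050 (adjusted p = 0.0241), 2 of 13 anaerobic genes, TIR2 at 0.15 ± 0.030 and SUT2 at -0.11 ± 0.024, and 0 of 12 other isoprenoid genes, 1 of these at an unadjusted p under 0.05. Against wild-type medium, limma called 0 genes of these lists in each of the 4 media, and at most 1 gene of a list had an unadjusted p under 0.05.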

How the data were processed

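The authors deposited, for each of the 12 spotted 2-colour arrays, the mean and background intensity of every spot in both dyes as scanned, without normalization. The deposited table of log2 ratios per spot, normalized by the authors with loess per print tip without background subtraction and corrected for gene-specific dye bias, served as an alternative; its column for the first cho2 array ran opposite to the scanner values (r = -0.913, against 0.901 to 0.973 elsewhere) and was turned. A table of the authors' own comparisons, made with limma 2.12.0 per the submitters' processing notes, holds log2 ratios and p-values and was not used. The genome build is not given in the sources used here.

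Of 15552 spots per array, 12776 were 6388 gene probes in duplicate; 5326 probes have 1 symbol. In limma 3.58.1 (R 4.3.3), intensities were background-corrected (normexp, offset 50), ratios were normalized by loess (span 0.3) on gene spots, turned to sample over reference by the labelled dyes, and averaged over duplicates. A single fit over 12 arrays had 6 group means and a dye term (5 residual and 3.29 prior degrees of freedom). Tests were two-sided, adjusted by Benjamini-Hochberg over 6388 probes, with a limit of 0.05. Array numbers coincide with the dye, and arrays of the same number in a set deviated together (r = 0.216 to 0.809 once the dye means of the other set were removed), so that pairing and a dye response particular to a set cannot be told apart. The fit was tested on simulated data with noise drawn independently for each array. Since arrays of the same number deviated together here, that test does not show how the fit performs on these arrays. Genes with array values in the text are those called between media or sets, the 4 highest and 4 lowest against the reference, and the 2 with the smallest p in each comparison among media; of the other lists, those called if 4 or fewer, otherwise the 2 with the smallest p in each direction. Ranges of genes with a dye difference, and HMG1 between sets, were added after their values were seen. The members and lists were chosen with earlier results of these data known.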

Additional observations from a re-analysis of the deposited data

How the results depend on the processing

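No comparison of a deletion-strain medium with wild-type medium, nor of media within a set, called any of the 32 genes under any alternative, which were each array left out in turn, 1 set fitted alone, the array number as a replicate block, no dye term, loess within print tips, centring on the median, raw signals without subtraction, the deposited log2 table, and removal of the darkest 25% of probes. Against the reference 28 to 30 genes were called with 1 array left out, and the median over the 32 genes was -0.093 with loess per print tip and -0.070 in the deposited table. Against the reference 27 genes were called with loess per print tip, 28 in the deposited table and 26 without the dye term. ERG24, FAS2 and FAA1 were lost in the first 2 of these settings, and ERG7, ERG24 and FAA1 in the last. FAS2 (0.0034) and FAA1 (-0.043) changed sign in the deposited table. The median in bur2 medium was 0.037 with median centring, that in cho2 medium -0.10 with median centring and -0.016 in the deposited table, and that of bur2 against cho2 medium 0.12 with median centring. In this last case the smallest limma adjusted p among the 32 genes was 0.0504, only just above the limit. Between the sets over 3 media each, 3 genes were called with loess per print tip, 2 with median centring, 0 without the dye term and 0 to 9 with 1 array left out, and in the wild-type media 0 to 1. The cause of these changes was not tested. With the array number as a replicate block in each set, 31 of the 32 genes were called against the reference and 6 between the sets, and the probes called were 33 in place of 15 between the wild-type media; the block changed no other count of the 32 genes. Averaging the arrays of a medium, and comparing the sets within each dye, were chosen after seeing the data. The 631 probes called between the sets became 1115 with averaging, 277 with median centring, 99 without the dye term, and 199 (without the first npl3 array) to 1288 (without the first wild-type array of set 1); the 15 between wild-type media became 6 to 161, also highest without that wild-type array. With 1 array left out, up to 2, 36, 25 and 1 probes were called in cbf1, npl3, bur2 and cho2 medium, up to 3 between cbf1 and npl3 medium and up to 9 between bur2 and cho2 medium, none of them a gene of the 32. UPC2, ERG26 and ECM22 were at 1.83, 2.51 and 2.95 times background on their dimmest array, where the offset limits the ratio that can be seen.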
